A study of Mus musculus with 8 samples.

Results

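WNT genes, meaning the secreted WNT ligands, their receptors, their secreted inhibitors and close partners, were described here in the subcutaneous fat pad of the groin (inguinal white adipose tissue, iWAT) in 4 control and 4 Senp2-aKO samples from mice. The members were chosen by symbol: Wnt, Fzd, Sfrp or Dkk followed by a digit, and 13 further symbols (Frzb, Wif1, Lrp5, Lrp6, Axin2, Ctnnb1, Tcf7l1, Tcf7l2, Rspo1, Rspo2, Rspo3, Lgr4 and Porcn). This gave 50 genes read by 61 probes, of 20972 genes named on the array. Of the 50 genes, 36 passed a filter on low signal and were among the 14730 genes tested.

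Control mice were Senp2flox/flox, so that Senp2, a gene for a SUMO protease, carried loxP sites on both alleles. Senp2-aKO mice were Senp2flox/flox ; Adipoq Cre, in which the adiponectin promoter drives Cre recombinase in adipocytes and leaves other cells of the fat pad with their Senp2. Both groups began a diet with 58 kcal% fat at 8 weeks of age, ate it for 12 weeks and were housed at 22 to 24 °C. Each RNA sample was labelled with Cy3 and read on its own Agilent mouse array, and the labels number the samples within a group without saying that each came from a different animal, so that p-values measure the spread between these samples.

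WNT proteins are lipid-modified by the enzyme porcupine, leave the cell and bind Frizzled receptors. With LRP5 or LRP6 as co-receptor, the signal stops a destruction complex built on axin, and beta-catenin then acts with TCF factors in the nucleus, whereas ligands such as WNT5A and WNT11 mostly signal without beta-catenin. In fat, WNT10B and beta-catenin are known to hold back the formation of adipocytes, and SFRP5, which adipocytes secrete, is known as a decoy that binds WNT5A.

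All arrays held 62976 spots, and the probes well above background numbered 29305 to 31362 per array. Levels below are log2 processed signal relative to the 75th percentile of the array, so that 0 is the signal of that percentile, and a difference of 1 is a doubling. They can be set against each other for a gene between arrays, not between genes. The targeted gene Senp2 had 1 probe, and whether it lies in the deleted exons is not given. Its level was 2.45 ± 0.06 on control and 2.18 ± 0.04 on Senp2-aKO arrays (SD, n = 4 each), a difference of -0.27 (SE 0.08) that missed the threshold in limma (adjusted p = 0.0507), with no overlap between the groups (exact permutation p = 0.0286, two-sided, the smallest that 70 assignments allow). It passed without array aKO 2 (-0.25, adjusted p = 0.0452, with 0.0162 to 0.135 over the alternatives). Adipocyte markers were read as a check that the samples are fat, which does not check the fat pad. Of these, 10 of 10 were measured, with a mean level of 7.69 to 8.02 on control and 7.62 to 8.04 on Senp2-aKO arrays. Array aKO 2 stood apart on the second principal component (21.9% of the variance), and WNT calls that change without it are given both ways.

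Of the 36 WNT genes tested, 5 rose in Senp2-aKO fat, 3 fell and 28 did not pass (limma, Benjamini-Hochberg adjusted p under 0.05 over all genes). The R-spondins Rspo1 and Rspo3, the ligands Wnt4 and Wnt16 and the receptor Fzd9 rose, by 1.48-fold to 3.66-fold. Axin2, the ligand Wnt5a and the inhibitor Sfrp5 fell, by 2.33-fold to 4.75-fold. The largest of these, for Axin2, is uncertain in size, since 1 of 4 Senp2-aKO arrays was above background and the controls alone met the filter. These are 22.2% of the WNT genes tested, 13.9% higher and 8.33% lower, beside 14.4% of all genes tested, of which 7.29% were higher and 7.12% lower. Nothing is read from these shares about the WNT genes as a group.

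The median log2 fold change of the 36 was -0.03, against -0.02 over all genes tested, with 17 values above 0 and 19 below. Their median absolute value was 0.35, against 0.24 over all genes, and 23 of the 36 lay within 0.5 of 0. All 4 Senp2-aKO arrays lay above all 4 controls for 6 WNT genes (16.7%) and below them for 5 (13.9%), beside 11.2% and 15.1% of all genes. Without adjustment, 8 of the 36 were higher and 7 lower at a limma p under 0.05, beside 2171 and 2586 of the 14730 genes tested. The unadjusted counts given below for parts of the genes have this same background. The fat pad is a mixture, and fewer cells of a type and less RNA per cell cannot be told apart in it.

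**Figure D1:**
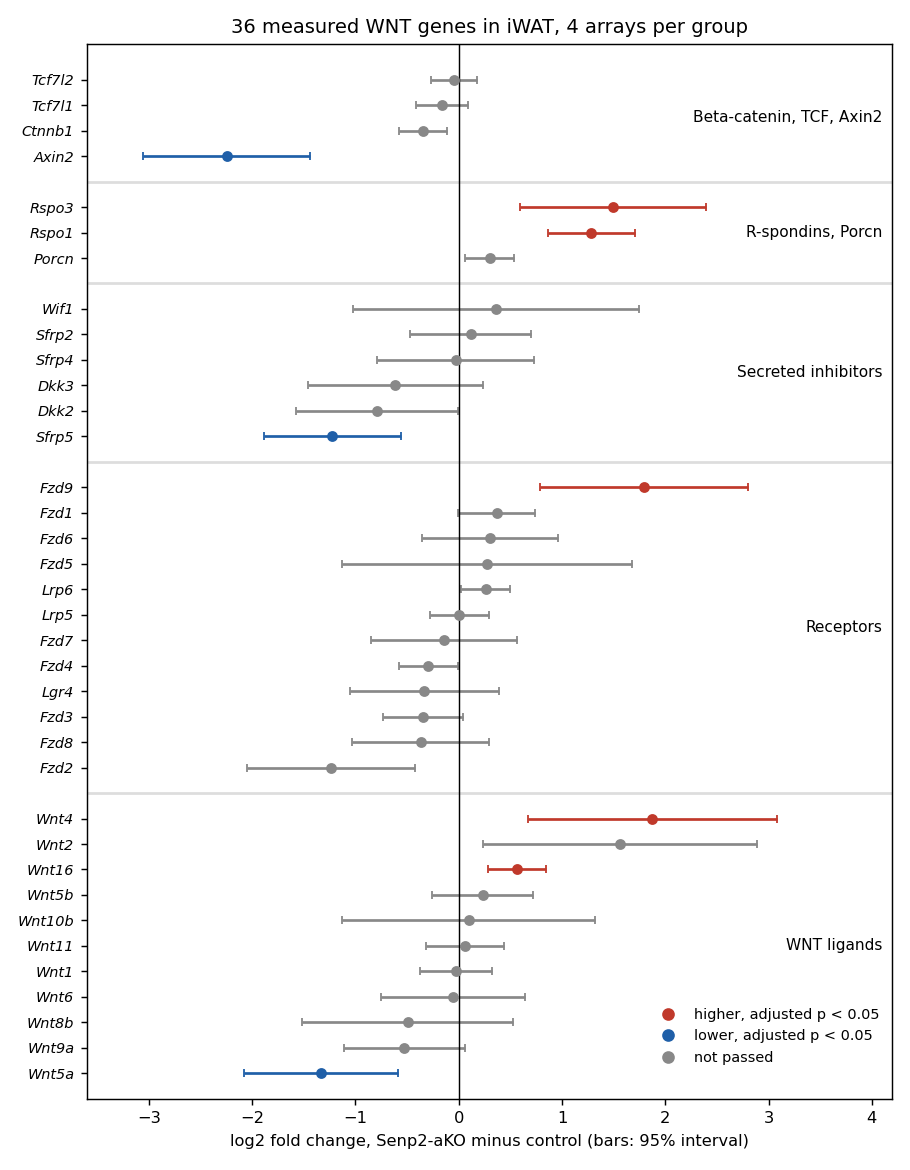
Log2 fold change (Senp2-aKO minus control, horizontal axis) of each of the 36 WNT genes tested, grouped by role, with 95% intervals from limma (n = 4 arrays per group). The 5 red points (higher) and 3 blue points (lower) passed at an adjusted p under 0.05, and the other 28 grey points lie on both sides of 0.

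The start regions of genes that changed are shown for orientation, since genes of one pathway moved in both directions. RefSeq (GRCm38.p6) promoter sequences were held for 33 of the 50 WNT genes and for 6 of the 8 that passed, without Wnt5a and Rspo3. The 250 bases before the annotated start are printed for a pair that fell, Axin2 and Sfrp5, and a pair that rose, Wnt4 and Wnt16, 5′ to 3′ on the gene's strand. Capitals mark the GC box GGGCGG or the CCAAT box CCAAT, on either strand.
Axin2, chr11:108920099-108920348, plus strand: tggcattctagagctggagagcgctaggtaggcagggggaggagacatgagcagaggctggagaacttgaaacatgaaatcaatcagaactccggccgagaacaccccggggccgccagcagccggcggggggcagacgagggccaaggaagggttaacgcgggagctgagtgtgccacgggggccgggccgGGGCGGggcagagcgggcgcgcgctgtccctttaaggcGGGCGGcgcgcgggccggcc
Sfrp5, chr19:42202253-42202502, minus strand: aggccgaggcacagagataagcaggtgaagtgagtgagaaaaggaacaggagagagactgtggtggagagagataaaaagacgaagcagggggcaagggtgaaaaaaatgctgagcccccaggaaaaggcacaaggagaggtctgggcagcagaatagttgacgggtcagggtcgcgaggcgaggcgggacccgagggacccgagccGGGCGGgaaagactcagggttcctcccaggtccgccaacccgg
Wnt4, chr4:137277385-137277634, plus strand: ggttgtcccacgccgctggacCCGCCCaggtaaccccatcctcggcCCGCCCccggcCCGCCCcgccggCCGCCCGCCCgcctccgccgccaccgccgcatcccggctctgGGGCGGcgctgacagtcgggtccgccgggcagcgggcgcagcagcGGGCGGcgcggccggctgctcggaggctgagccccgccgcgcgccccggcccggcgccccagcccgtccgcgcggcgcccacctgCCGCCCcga
Wnt16, chr6:22287977-22288226, plus strand: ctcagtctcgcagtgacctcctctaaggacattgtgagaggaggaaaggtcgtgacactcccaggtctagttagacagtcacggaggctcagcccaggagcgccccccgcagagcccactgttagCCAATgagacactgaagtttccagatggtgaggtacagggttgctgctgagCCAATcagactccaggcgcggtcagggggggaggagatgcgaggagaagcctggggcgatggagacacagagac

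Letters matching 4 motifs were searched on both strands. The TCF/LEF core CTTTGAT was in 0 of the 6 promoters of genes that passed and in 2 of the 33 WNT genes' (Wnt11 and Wnt5b), beside 3.72% of all 27025 genes with a window of the same length. For the C/EBP motif TTGCNNAA these were 0 of 6, 4 of 33 (Fzd1, Lgr4, Sfrp2 and Wnt3) and 10.8%. The CCAAT box was in 1 of 6 (Wnt16, with 2 matches), 12 of 33 and 37.5%. The GC box was in 4 of 6 (Axin2, Fzd9, Sfrp5 and Wnt4), 25 of 33 and 35.4%, while WNT gene windows had a median GC content of 68.6% against 52.4% over all windows. Of Fzd9 and Rspo1, whose windows are not printed, Rspo1 held 0 matches to the 4 motifs. Wnt4 held 8 overlapping or separate matches and a GC content of 85.2%. These are matches of letters in a window, and nothing was read on binding.

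R-spondins are secreted proteins that bind LGR4 to LGR6 and slow the removal of Frizzled receptors from the cell surface, and Porcn encodes porcupine. Of the 4 genes of this kind, Rspo1 and Rspo3 rose, Porcn did not pass, and Rspo2 was above background on 0 of 8 arrays. Rspo1 had the smallest adjusted p of the WNT genes. Its level on controls 1 to 4 was -1.13, -1.27, -1.77 and -0.95, and on aKO 1 to 4 it was -0.09, 0.15, 0.17 and -0.22. Every Senp2-aKO array lay above every control, and the lowest of them was above the highest control by more than the range of the Senp2-aKO group. The rise was 2.43-fold (95% interval 1.82 to 3.26, log2 fold change 1.28, SE 0.18, limma adjusted p = 0.00687), and it passed in all 15 alternatives (adjusted p from 0.00431 to 0.0342).

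Rspo3 read -4.67, -3.29, -3.71 and -3.88 on the controls, of which 3 were above background, and -2.75, -2.63, -2.83 and -1.37 on the Senp2-aKO arrays, all above background. The groups did not overlap, and aKO 4 was far above the other Senp2-aKO arrays. The rise was 2.82-fold (1.51 to 5.25, log2 fold change 1.49, SE 0.39, adjusted p = 0.0398). It did not pass without aKO 1, aKO 4, control 1, control 3 or control 4 (adjusted p 0.0591 to 0.0957 there), nor with no background filter (0.0648, 0.0382 to 0.0957 over 14 alternatives), and without any array the log2 fold change was 1.15 to 1.69.

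Porcn, which WNT proteins depend on for secretion, read 0.97, 1.10, 0.81 and 0.90 on controls and 1.38, 1.29, 1.09 and 1.22 on Senp2-aKO arrays. Only aKO 3, by a small margin, lay below the highest control. The log2 fold change of 0.30 (SE 0.10, 95% interval 0.06 to 0.53) did not pass (limma adjusted p = 0.0865).

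Among the 19 WNT ligands 11 were tested, of which Wnt4 and Wnt16 rose, Wnt5a fell and 8 did not pass. The remaining 8 were below the filter: Wnt2b, Wnt3, Wnt3a and Wnt8a were above background on 0 arrays, Wnt7a and Wnt7b on 1, Wnt10a on 2 and Wnt9b on 3. Wnt3a, a ligand widely used to activate beta-catenin in culture, was thus not well above background in this fat. The median log2 fold change of the 11 was 0.06.

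Wnt5a, a ligand that acts mostly without beta-catenin, was the ligand that fell. Controls 1 to 4 read 1.65, 1.60, 1.61 and 1.55, and aKO 1 to 4 read 0.26, -0.73, 1.03 and 0.51. The controls were tightly packed, the Senp2-aKO arrays were spread out below them, and aKO 2 was lowest. The fall was 2.53-fold (95% interval 1.51 to 4.24, log2 fold change -1.34, SE 0.32, limma adjusted p = 0.0318). This call ended without aKO 1, aKO 4 or any of the 4 controls (adjusted p 0.0583 to 0.0840 there) and with no background filter (0.0530, 0.0138 to 0.0840 over 15 alternatives), while the log2 fold change stayed between -1.59 and -1.004 in the 8 omissions.

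The ligands with the same kind of action, Wnt5b and Wnt11, did not pass. Wnt11 read -1.08, -1.21, -1.27 and -0.98 on controls and -1.20, -1.38, -0.63 and -1.07 on Senp2-aKO arrays, which overlap. Its log2 fold change was 0.06 (SE 0.16, 95% interval -0.31 to 0.44, limma adjusted p = 0.815), and that of Wnt5b was 0.23 (SE 0.21, -0.26 to 0.72). The differences between Wnt5a and these ligands were not tested.

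Wnt4, a ligand known from kidney, muscle and reproductive tract, rose. Controls read -3.96, -6.56, -4.36 and -4.41, the second of them below background, and Senp2-aKO arrays read -3.05, -3.30, -2.58 and -2.86. All Senp2-aKO arrays lay above all controls, and control 2 was far below the rest. The rise was 3.66-fold (95% interval 1.59 to 8.46, log2 fold change 1.87, SE 0.53, limma adjusted p = 0.0495). Of the 8 calls it passed in the fewest alternatives, 4 of 14 (adjusted p 0.00630 to 0.102). Among the omissions it passed only without control 2, where the log2 fold change was 1.29, and the other 7 ended the call (adjusted p 0.0576 to 0.102, log2 fold change up to 2.16). A second probe differed by 2.04, but it was above background on 0 of 4 control and 3 of 4 Senp2-aKO arrays. It failed the filter, so that this size is a difference from the floor and adds nothing to the call.

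Wnt16, a ligand best known from bone and skin, rose by less but with a smaller error. Its controls read -4.11, -3.88, -4.31 and -4.22, and its Senp2-aKO arrays -3.52, -3.39, -3.64 and -3.71. The groups did not overlap, and every array was above background. The rise was 1.48-fold (1.22 to 1.80, log2 fold change 0.57, SE 0.12, adjusted p = 0.0223). It did not pass without aKO 1, control 1, control 3 or control 4 (adjusted p 0.0563 to 0.0655 there, 0.0195 to 0.0677 over 15 alternatives), with log2 fold changes of 0.50 to 0.65 in the 8 omissions. A second probe was not well above background on any array.

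Wnt10b, the ligand most studied as a brake on adipocyte formation, was near background and above it on 3 of 4 arrays in each group. Controls read -4.43, -3.57, -3.61 and -2.69 and Senp2-aKO arrays -3.81, -4.68, -2.31 and -3.12, and the groups overlapped throughout. The log2 fold change of 0.10 had a 95% interval of -1.13 to 1.32 (SE 0.53, limma adjusted p = 0.920), so that changes of about a doubling either way cannot be told from none. Wnt2 had a large difference of 1.56 (SE 0.58, adjusted p = 0.105) on 2 control and 3 Senp2-aKO arrays above background. The other 4 ligands that did not pass, Wnt9a, Wnt8b, Wnt6 and Wnt1, lay between -0.53 and -0.03. Neighbouring ligand genes on a chromosome gave no call either: of Wnt10b and Wnt1 on chromosome 15, Wnt6 and Wnt10a on 1, and Wnt3a and Wnt9a and Wnt9b and Wnt3 on 11, none passed among those tested.

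**Figure D2:**
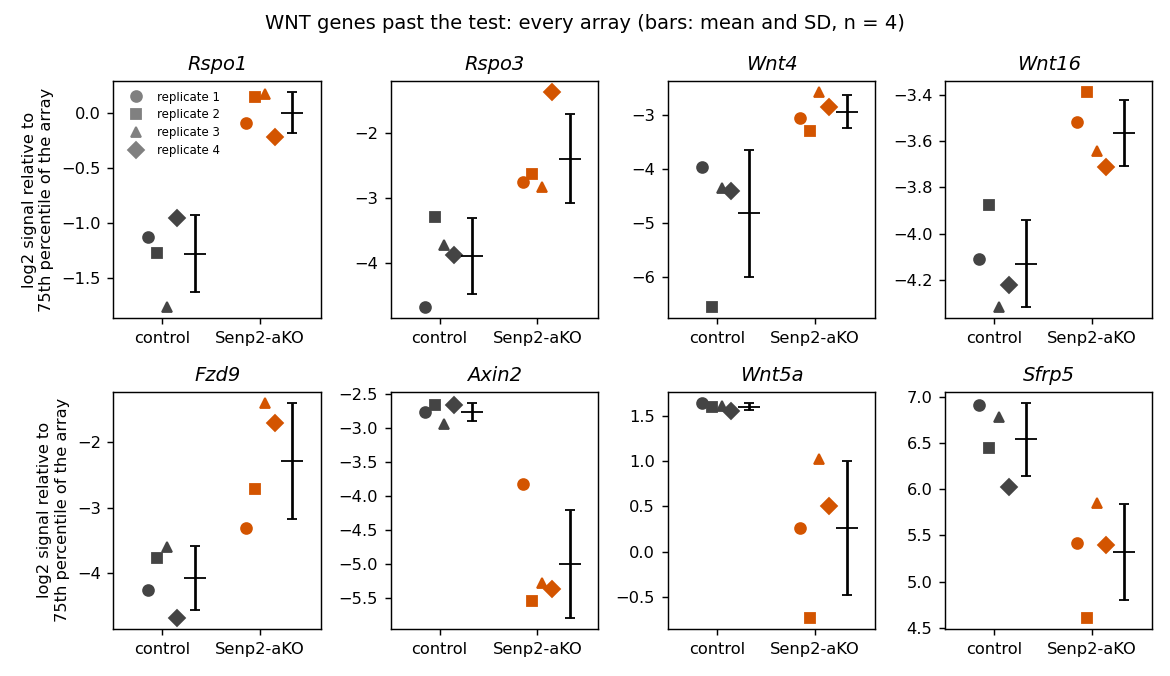
Log2 level relative to the 75th percentile of the array (vertical axis) of the 8 WNT genes that passed, for 4 control (grey) and 4 Senp2-aKO (orange) arrays. Symbols mark the replicate number, and bars the mean and SD. In each panel the groups are separate, with Rspo1, Rspo3, Wnt4, Wnt16 and Fzd9 higher and Axin2, Wnt5a and Sfrp5 lower in Senp2-aKO.

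Frizzled genes encode the WNT receptors, Lrp5 and Lrp6 their co-receptors and Lgr4 a receptor of R-spondins. Of 13 receptor genes 12 were tested, 1 rose, 0 fell and 11 did not pass in limma (without adjustment 2 were higher and 2 lower at a p under 0.05). Fzd10 was above background on 1 array. The median log2 fold change was -0.07.

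Fzd9 rose. Its level was -4.25, -3.76, -3.61 and -4.69 on controls and -3.31, -2.72, -1.40 and -1.71 on Senp2-aKO arrays, above background on all 8. The groups did not overlap, and aKO 3 and aKO 4 were highest. The rise was 3.47-fold (95% interval 1.72 to 6.99, log2 fold change 1.79, SE 0.44, limma adjusted p = 0.0327). This call ended without aKO 3, aKO 4 or any of the 4 controls (adjusted p 0.0513 to 0.0884 there) and with no background filter (0.0544, 0.0166 to 0.0884 over 15 alternatives), with log2 fold changes of 1.50 to 2.14 in the 8 omissions.

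Fzd2, a receptor known to bind WNT5A, went the other way but did not pass. Controls read 0.67, 0.63, 0.69 and 0.70, and Senp2-aKO arrays -0.45, -1.71, 0.20 and -0.31. The controls were tight, the Senp2-aKO arrays lay below all of them and aKO 2 was lowest. The log2 fold change was -1.24 (SE 0.35, 95% interval -2.05 to -0.42, limma adjusted p = 0.0520). A second probe was above background on 4 of 4 controls and 0 of 4 Senp2-aKO arrays and was at least 2.01-fold lower. It passed the background filter through the controls alone, so that this size is a bound and its p-value is not used. The first probe passed without aKO 2 (-0.86, adjusted p = 0.0150) and without aKO 3 (adjusted p = 0.0238), over a range of 0.0150 to 0.118 in the 8 omissions. It also passed under a background model (limma adjusted p = 0.0265) and a filter requiring all 8 arrays (0.0458), but not in the other alternatives (0.0526 to 0.0820).

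The other receptors gave small differences. Fzd4, a Frizzled known from blood vessels, read 6.05, 6.18, 5.84 and 6.04 on controls and 5.88, 5.46, 5.87 and 5.73 on Senp2-aKO arrays, with some overlap (log2 fold change -0.29, SE 0.12, limma adjusted p = 0.147). Under quantile normalisation it passed at -0.44. Lrp6 read 4.15, 4.05, 4.07 and 3.97 on controls and 4.47, 4.22, 4.15 and 4.44 on Senp2-aKO arrays, which were separate by a narrow margin at aKO 3 (0.26, SE 0.10, adjusted p = 0.122), and its second probe gave 0.30 (SE 0.10, adjusted p = 0.0913 over all kept probes). Lrp5 read 1.36, 1.46, 1.38 and 1.38 on controls and 1.46, 1.08, 1.42 and 1.64 on Senp2-aKO arrays, which overlap (95% interval of the difference -0.28 to 0.29). Fzd1, Fzd3, Fzd5, Fzd6, Fzd7, Fzd8 and Lgr4 had log2 fold changes from -0.37 to 0.37. For Fzd5 and Fzd7 the sign differed between probes, and 1 Senp2-aKO array was high for each probe with a positive value. The Fzd5 probe at 0.28 read -0.66 on aKO 1 against -3.73 to -2.99 on the other Senp2-aKO arrays and gave -0.41 without it, beside -0.44 for the second probe. The second Fzd7 probe, at 0.38, read -1.16 on aKO 3 against -5.80 to -4.82, and 1 array of that group had it above background. The first gave -0.14 and was lower without aKO 2 (-0.47, adjusted p = 0.0489).

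**Figure D3:**
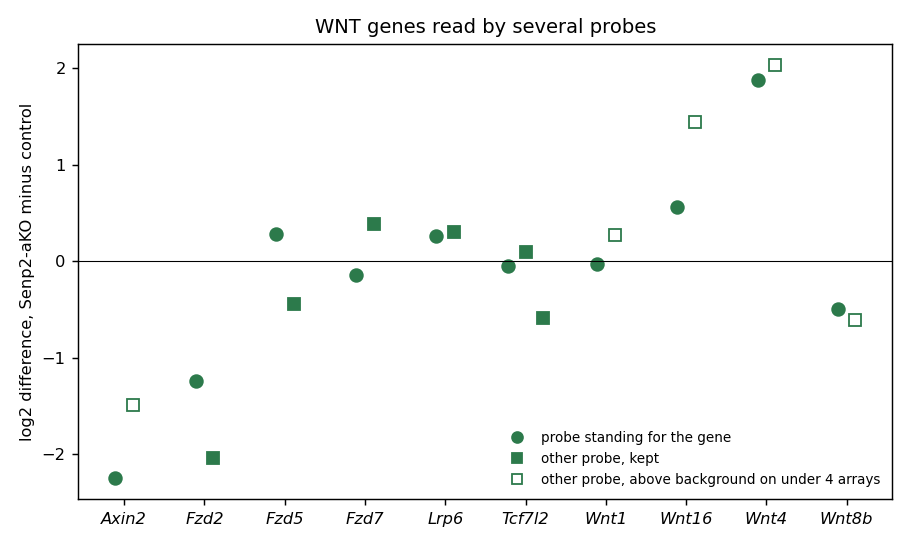
Log2 difference (Senp2-aKO minus control, vertical axis) for each probe of the 10 WNT genes read by several probes, where circles stand for the gene, filled squares are other probes above background on at least 4 arrays and open squares are probes above it on fewer. The probes of Axin2, Fzd2, Lrp6, Wnt4, Wnt16 and Wnt8b lie on the same side of 0, and those of Fzd5, Fzd7, Tcf7l2 and Wnt1 on both sides.

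Secreted inhibitors bind either the ligand, as SFRP proteins and WIF1 do, or the co-receptor, as DKK1, DKK2 and DKK4 do. Of 10 such genes 6 were tested, and 1 fell, 0 rose and 5 did not pass in limma (without adjustment 0 were higher and 2 lower at a p under 0.05). Dkk1 and Dkk4 were above background on 0 arrays and Frzb on 1. The median of the 6 was -0.32.

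Sfrp5 fell. It read 6.91, 6.44, 6.78 and 6.02 on controls and 5.41, 4.61, 5.85 and 5.39 on Senp2-aKO arrays. The groups did not overlap, although aKO 3 came close to control 4, and aKO 2 was lowest. The fall was 2.33-fold (95% interval 1.47 to 3.69, log2 fold change -1.22, SE 0.29, limma adjusted p = 0.0289). This call ended without aKO 1, aKO 4, control 1, control 2 or control 3 (adjusted p 0.0608 to 0.0829 there, 0.0157 to 0.0829 over 15 alternatives), with log2 fold changes of -1.40 to -0.99 in the 8 omissions.

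The other SFRP genes did not pass or could not be tested. Sfrp2 read 2.03, 1.92, 1.20 and 1.97 on controls and 2.31, 2.15, 1.76 and 1.36 on Senp2-aKO arrays (log2 fold change 0.12, SE 0.26, limma adjusted p = 0.781). Sfrp4 read 0.06, 0.13, 0.76 and 1.60 against 0.74, 0.26, 0.76 and 0.67 (-0.03, SE 0.33, adjusted p = 0.964). For both the groups overlapped. Sfrp1 had no usable spot on control 4, where its only spot carried an outlier mark. Controls 1 to 3 read -2.64, -3.53 and -2.80. Its Senp2-aKO arrays read -1.98, -1.77, -1.74 and -2.04, with a mean of -1.88 and a difference of 1.11 from those controls. With the marked spot, at 1.55, the difference was -0.03 (SE 0.99, adjusted p = 0.988).

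Dkk2 read -2.55, -3.67, -2.71 and -2.19 on controls and -4.24, -3.52, -3.25 and -3.27 on Senp2-aKO arrays, lower on average but with control 2 among the latter (log2 fold change -0.79, SE 0.34, limma adjusted p = 0.154). Dkk3, which differs from the others in not binding LRP6, gave -0.61 (SE 0.37, adjusted p = 0.287), and Wif1 0.36 with a wide error (SE 0.60).

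Within the cell, Ctnnb1 encodes beta-catenin, Tcf7l1 and Tcf7l2 encode TCF factors that it binds, and Axin2 encodes an axin that beta-catenin induces and that in turn promotes its destruction. All 4 were tested, 1 fell and 3 did not pass. Axin2 fell. It read -2.76, -2.66, -2.94 and -2.65 on controls and -3.82, -5.55, -5.27 and -5.36 on Senp2-aKO arrays. The controls were within 0.5 of each other, and aKO 1 lay between them and the other Senp2-aKO arrays. Of the Senp2-aKO arrays 1 of 4 was above background, so that the controls alone met the background filter. The size of the fall is thus uncertain, and its interval and p-value rest largely on values below background. As fitted, the fall was 4.75-fold (95% interval 2.71 to 8.32, log2 fold change -2.25, SE 0.35, limma adjusted p = 0.00880). It passed in all 14 alternatives that tested it (adjusted p from 0.00109 to 0.0328), which reuse the same spots. A second probe differed by -1.49, but it was above background on 2 control and 0 Senp2-aKO arrays and failed the filter, so that this size is uncertain too.

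Ctnnb1 read 3.15, 3.14, 3.15 and 3.18 on controls and 2.87, 2.57, 2.95 and 2.85 on Senp2-aKO arrays. Controls differed from each other by far less than the gap to the Senp2-aKO arrays, all of which were lower. The difference was small, 1.27-fold (95% interval 1.08 to 1.49, log2 fold change -0.34, SE 0.10), and did not pass (limma adjusted p = 0.0539). It passed without aKO 2 (-0.27, adjusted p = 0.0342) and without aKO 3 (adjusted p = 0.0453), over a range of 0.0342 to 0.128 in the 8 omissions. Ctnnb1 also passed under quantile normalisation (limma adjusted p = 0.0247), a background model (0.0316) and a filter requiring all 8 arrays (0.0488). In the other alternatives it did not (0.0542 to 0.109). Tcf7l2, read by 3 probes, gave -0.05, 0.09 and -0.59. For the last (adjusted p = 0.499 over all kept probes) control 1 read -0.31 against -2.89 to -2.35 on the other controls. The first had a 95% interval of -0.27 to 0.18 (adjusted p = 0.777). On that probe controls read -0.35, -0.29, -0.62 and -0.53 and Senp2-aKO arrays -0.53, -0.47, -0.46 and -0.53, which overlap. Tcf7l1 gave -0.16 (SE 0.11).

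Low signals make the sizes above depend on the treatment of background. With a background model and an added offset, the log2 fold change of Axin2 was -0.56, of Wnt4 0.66, of Rspo3 0.67, of Fzd9 0.92 and of Wnt16 0.28, and of these Wnt16 did not pass (adjusted p = 0.0677). Among 18494 probes never above background, the median level was 0.25 higher on Senp2-aKO arrays, against 0.02 for 26702 probes always above it, a shift in the direction of the dim genes that rose whose part in them was not tested.

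Without aKO 2, 10 WNT genes passed, beside 19.2% of all genes tested. Of the 8 above, 7 were among them, without Wnt4, and Ctnnb1, Fzd2 and Fzd7 joined as lower. This array was the farthest from its group's median for 20 of the 36 WNT genes (55.6%), beside 51.4% of all genes. The spread was larger among Senp2-aKO than control arrays for 25 of 36 WNT genes (69.4%), beside 75.5% of all genes.

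The wider WNT pathway was read through 7 lists with 88 further genes, of which 73 were tested, 2 rose (2.74%) and 10 fell (13.7%), beside 7.29% and 7.12% of all genes, with a median of -0.16 against -0.02. In the first list, on secretion and reach of the ligands, 1 of 7 fell: Gpc4, a glypican that holds WNT proteins at the cell surface (log2 fold change -1.10, SE 0.23, limma adjusted p = 0.0210). Wls, which carries WNT proteins out of the cell, gave -0.23 (SE 0.12), and Notum, which removes their lipid, 0.10 (SE 0.11). Of 6 tested co-receptors and their regulators 0 passed (without adjustment 0 were higher and 1 lower at a p under 0.05), among them the WNT5A receptors Ror2 and Ryk (-0.21, SE 0.32, and -0.39, SE 0.16) and Znrf3, the ligase that R-spondins hold back (0.35, SE 0.16). Among 6 further inhibitors Trabd2b, a membrane protease that cleaves WNT proteins, fell 4.01-fold (-2.004, SE 0.38, adjusted p = 0.0152), and its other kept probes gave -2.02 and -1.80.

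In the destruction complex 0 of 17 genes rose and 2 fell, the kinase gene Gsk3b (log2 fold change -0.44, SE 0.11, limma adjusted p = 0.0373) and Amer1, which brings axin and APC to the membrane (-0.70, SE 0.16, adjusted p = 0.0246). The 2 other kept probes of Gsk3b gave -0.74 and -0.45 and did not pass (adjusted p from 0.0533 to 0.0866 over all kept probes). The mean of the destruction complex list was 1.61 to 1.67 on controls and 1.42 to 1.56 on Senp2-aKO arrays. It is given because its groups were separate, whereas the means of the other WNT pathway lists overlapped between the groups. Target genes, for example, had means of 1.17 to 1.31 on controls and 0.58 to 1.36 on Senp2-aKO arrays. Of 15 TCF and co-factor genes 2 fell, Bcl9 and Bcl9l, which both link beta-catenin to the transcription machinery (-0.71, SE 0.12, and -0.54, SE 0.10). A second probe of Bcl9 gave -0.47 and did not pass (limma adjusted p = 0.0789 over all kept probes). In this list Lef1 and Tcf7, named after their values were seen, read 2.25 and 0.16 on aKO 2 and no higher than -1.77 and -3.36 on any other array. Both are also T lymphocyte genes, and the T lymphocyte mean was 2.41 on aKO 2 and at most 0.08 elsewhere.

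Genes known as targets of the pathway moved in both directions. Of 10 tested, Myc rose (log2 fold change 1.29, SE 0.32, limma adjusted p = 0.0335), and Ccnd1, a cyclin, and Ccn5, a matrix protein, fell (-0.56, SE 0.15, adjusted p = 0.0414, and -1.45, SE 0.27, adjusted p = 0.0149). Nkd1 is a feedback inhibitor that, like Axin2, beta-catenin induces. It read 2.48, 2.49, 3.28 and 2.89 on controls and 0.57, -0.69, 2.05 and 1.60 on Senp2-aKO arrays. All 4 Senp2-aKO arrays were thus lower, as for 15.1% of all genes tested, but Nkd1 did not pass (-1.90, SE 0.55, limma adjusted p = 0.0539). Of 12 planar polarity genes Celsr2 rose (1.17, SE 0.26), with a second probe at -0.15, and Vangl1 and Daam2 fell (-0.60, SE 0.14, and -1.12, SE 0.21).

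Of these 12 further calls, those of Trabd2b, Bcl9 and Ccn5 held in all 8 omissions (adjusted p up to 0.0489). Those of Bcl9l and Daam2 ended without control 1 (0.0513 for each), and each of the other 7 ended in 4 to 7 omissions, always including control 1, control 3 and control 4 (adjusted p 0.0511 to 0.109).

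**Figure D4:**
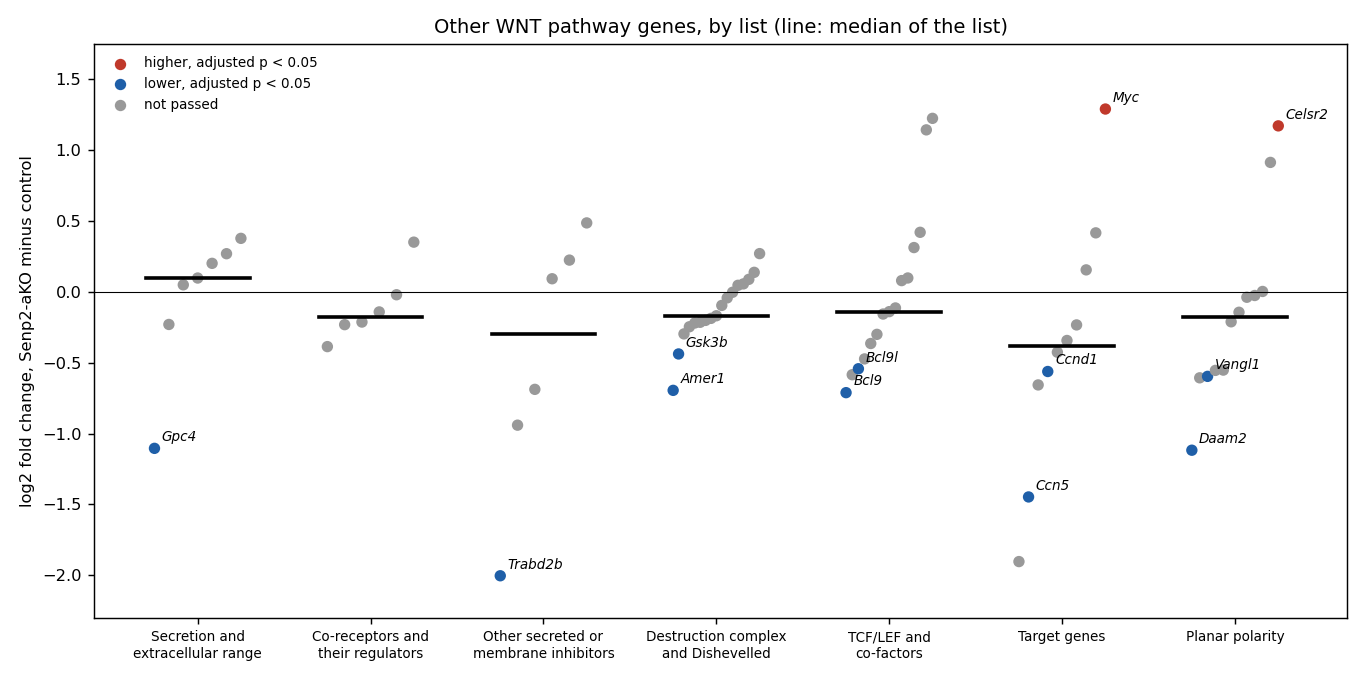
Log2 fold change (Senp2-aKO minus control, vertical axis) of 73 further WNT pathway genes in 7 lists (horizontal axis), where a point is a gene and a line the list's median. Named are the 2 red genes that rose (Myc and Celsr2) and the 10 blue genes that fell at a limma adjusted p under 0.05.

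WNT signals act on adipocyte formation, so 12 adipogenic genes were read beside them. Cebpb and the lipase gene Pnpla2 rose (log2 fold change 0.79, SE 0.19, and 0.52, SE 0.13), the hormone gene Lep fell (-1.85, SE 0.27) and 9 did not pass, among them Pparg (-0.55, SE 0.18) and Cebpa (-0.07, SE 0.16). The calls of Cebpb and Pnpla2 ended in 5 and 6 omissions (adjusted p 0.0605 to 0.0892) and that of Lep in none of 8.

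Markers of other cells moved with the groups on the same arrays. Of 14 skeletal muscle genes 11 rose, and their mean was -2.46 to 1.003 on controls and 2.41 to 3.90 on Senp2-aKO arrays. Of 6 tested mammary epithelium genes Krt5, Krt14 and Esr1 rose and 3 did not pass. Without adjustment 4 of the 6 were higher and 1 was lower at a limma p under 0.05. The list mean was -2.54 to -1.91 on controls and -1.90 to -0.82 on Senp2-aKO arrays, nearly meeting at control 3 and aKO 4. Epcam, Krt8, Cdh1, Elf5, Wap and Csn3 were below the background filter. Of 12 adipose progenitor genes Dpp4 and Ly6a rose (log2 fold change 1.23, SE 0.20, and 0.97, SE 0.12) and Pdgfrb fell (-0.71, SE 0.13), with list means of 3.18 to 3.40 and 3.08 to 3.64. Of 4 lymph node stroma genes Lyve1 rose, and the list mean was -1.20 to -0.56 on controls and -0.36 to 1.70 on Senp2-aKO arrays. The means of that list, B lymphocytes and T lymphocytes were highest on aKO 2 (1.70, 2.08 and 2.41). Of 8 mural and smooth muscle genes Des rose (2.27) and Notch3 fell (-0.78), Des being in the skeletal muscle list too, and of 8 Schwann cell genes S100b fell (-1.39). Endothelial, macrophage and keratinocyte lists had 0 of 8, 0 of 7 and 0 of 3 genes past the test in limma (at an unadjusted p under 0.05, 1, 3 and 0). The part of these cells in the WNT results was not tested.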

How the data were processed

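Total RNA of iWAT, 0.5 µg per sample, was labelled with Cy3 and read on 8 Agilent arrays of 1 colour. Per the submitters' processing notes, Agilent Feature Extraction 11.5.1 was used to read the images. Per the file headers, the deposited processed signal is an intensity, background-subtracted and detrended within the array, with no scaling between arrays. The median spot signal and local background are deposited as intensity too. Deposited flags (unit other, 0 or 1 per spot) mark spots above background, saturated spots (0 here) and outliers. The 8 value columns of the deposited normalised matrix match no label and were not used.

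The log2 processed signal minus the array's 75th percentile was averaged over a probe's spots, without the 3671 control spots and spots marked as outliers, which left out 269 of 55681 probes. Probes well above background on at least 4 of 8 arrays were kept. Gene names came from RefSeq accessions (GRCm38.p6): of 55412 probes, 27546 had 1 name and 27866 none. The kept probe with the highest mean over 8 arrays stood for its gene. Both groups were compared in limma 3.58.1 (R 4.3.3, data.table version 1.17.8), with Benjamini-Hochberg adjustment over 14730 genes, and the fit was tested on simulated data. Single quantities were compared by an exact permutation test. The 4 arrays per group limit the precision.

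The rule for the members uses symbols alone, but it and the lists were chosen with earlier results of these data known. Values on every array are given for WNT genes that passed, for those that did not pass with separate groups and an absolute log2 fold change of at least 0.5, and for 16 genes fixed by name. Named of each list are up to 4 genes past the threshold, and others are examples chosen after their values were seen. Alternatives were quantile normalisation, a background model (normexp, offset 50), no background filter, a filter requiring all 8 arrays, every kept probe, the replicate number as a block, each array left out and, chosen after seeing the data, outlier spots kept. Same-numbered samples did not deviate together: the correlations of their deviations from the group means were -0.02, -0.08, 0.14 and 0.11, so the numbers were not taken as pairs. In the array names controls and Senp2-aKO samples occupy different rows, so array row and group cannot be told apart.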

Additional observations from a re-analysis of the deposited data

Results flagged for a closer look

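Of 72 groups of 4 arrays (36 WNT genes in 2 genotypes), 5 held an array far from the other 3 by Dixon's test, where chance gives about 1 in 20 groups. For Axin2, aKO 1 read -3.82 against -5.55 to -5.27 on the other Senp2-aKO arrays, and it was the only one of them above background. For Rspo3, aKO 4 read -1.37 against -2.83 to -2.63, and for Wnt9a, aKO 2 read -1.76 against -0.88 to -0.75. Among controls, control 2 read 1.46 for Lrp5 against 1.36 to 1.38, and control 3 read 1.20 for Sfrp2 against 1.92 to 2.03.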

How the results depend on the processing

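Against 2123 genes called, 1294 were with the replicate block and 714 to 2828 with each array left out. Among the WNT genes 5 were called higher, and 3 with no filter on background, with the replicate block and with the filter requiring all 8 arrays, and 1 to 4 with each array left out. Against 3 called lower, 5 were under normexp, 5 under quantile normalisation, and 1 to 6 with each array left out. Of the 8 genes called, 7 remained under quantile normalisation, 7 under normexp, 4 without a filter, 5 with the replicate block (which ended Fzd9, Rspo3 and Wnt5a at adjusted p 0.0515, 0.0593 and 0.0550), and 2 to 7 with each array left out. Rspo1 was called in all 8 omissions, and so was Axin2, whose Senp2-aKO values were mostly below background. With each array left out, the further pathway genes called numbered 4 to 17, against 12. The Senp2 log2 fold change passed under normexp (-0.31), quantile normalisation (-0.26) and the filter requiring all 8 arrays (-0.27) and without aKO 2 (-0.25, adjusted p = 0.0452), and was -0.30 to -0.25 with each array left out.

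Signs turned for genes near 0: under normexp Lrp5 gave -0.048 and Tcf7l2 0.064. With each array left out, Lrp5 ranged from -0.073 to 0.11, Tcf7l2 from -0.10 to 0.0075, Sfrp2 from -0.074 to 0.30, Sfrp4 from -0.22 to 0.29, Wnt10b from -0.29 to 0.50 and Wnt11 from -0.082 to 0.17. Over 20 named WNT genes, 226 values kept side and sign, 43 no longer passed, 10 newly passed and 16 turned sign (the cause was not tested). Signals near background and 4 arrays per group limit these results. The filter requiring all 8 arrays left no value for Axin2, Rspo3, Wnt4, Wnt10b, Wnt2 and Dkk2.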
